A study of Solanum lycopersicum with 14 samples.

Results

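In tomato fruit of the yellow-fruited mutant n3122, transcript levels were compared between fruit aged 47 and 54 DPA, read here as days post anthesis, the usual sense of these letters. Few genes moved, and those that did included ripening genes that came up from levels below those of the wild type at the same age, and light-harvesting genes that went down. Both groups are fruit pericarp, the fleshy fruit wall, of greenhouse-grown n3122 plants, and M82, the red-fruited wild type whose background n3122 carries, supplied the matching groups at 35, 47 and 54 DPA. The n3122 series ran on to 60 DPA, and n3122 also had a group at 35 DPA. Each of the 7 groups had 2 libraries of total RNA, so the interval rests on 4 of the 14 libraries, and whether libraries of the same group stem from different plants is not stated in the labels. The labels name no mutated gene and no treatment.

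Each deposited table gives a single FPKM value (fragments scaled to transcript length and library size) per gene and group, which is the authors' value for both libraries together. No value per library was given, so the change between ages carries no error and no test, and every change below is a description of these pooled values. The 47 and 54 DPA values come from tables that were normalised separately. The change of a gene is log2 of (FPKM + 1) at 54 DPA minus that at 47 DPA, less the median of 0.06 over the genes with at least 1 FPKM at both ages. A gene was measured where it was listed above 0 at both ages and reached 1 FPKM at one of them, which held for 18401 of 34725 genes. A measured gene was counted as higher or lower, and is said to have risen or fallen, where its change reached 1 in size, a 2-fold difference on this scale. The pseudocount of 1 FPKM understates the change of low genes.

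Tomato is a climacteric fruit, in which a burst of ethylene accompanies ripening. The MADS-box factor RIN and the NAC factor NOR act early, ethylene synthesis enzymes (ACS and ACO) feed a signal that passes through the receptors and EIN2 to EIL and ERF factors, and downstream genes soften the wall, make lycopene and produce aroma. Meanwhile chloroplasts turn into chromoplasts and lose their light-harvesting apparatus.

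From 47 to 54 DPA, 143 genes of n3122 rose and 167 fell, which is 0.777% and 0.908% of the genes measured and 1.68% together. The other 18091 genes stayed within 2-fold, and the quartiles of all changes were -0.13 and 0.12. When each group was rescaled to the same total FPKM without centring, the split turned to 157 higher and 120 lower, since the median gene then moved by 0.10. The median level of the risen genes was 3.65 FPKM at 47 DPA and 13.8 FPKM at 54 DPA. The fallen genes went from a median of 17.3 FPKM to 6.02 FPKM. Over all measured genes the medians were 15.7 and 16.7 FPKM. Both sets were chosen by these same values, so a lower level at one age is built into each. A change of 4-fold or more was seen in 16 genes upward and 9 downward. Of the risen genes 55 stayed under 10 FPKM at both ages, as did 60 of the fallen.

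**Figure D1:**
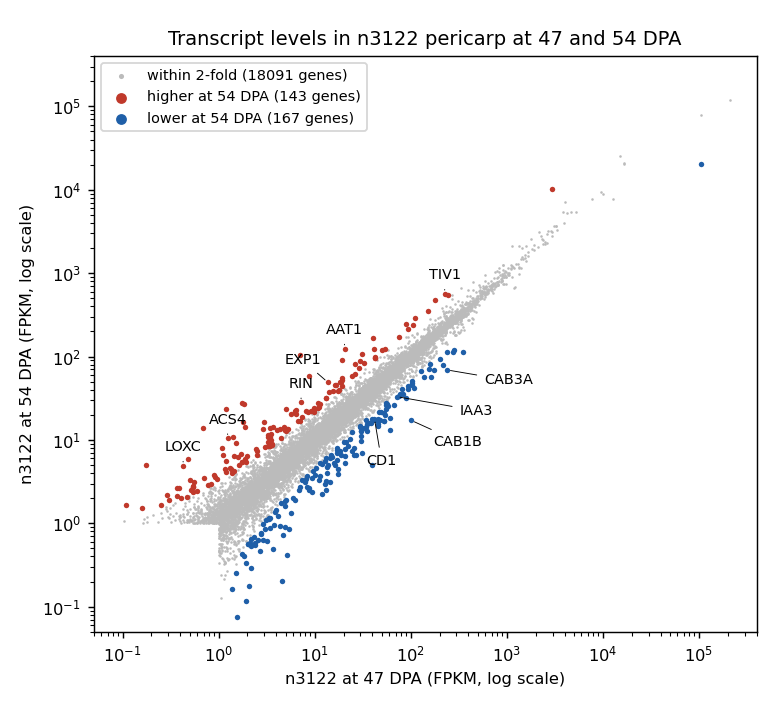
Each point is a measured gene, with its FPKM in n3122 at 47 DPA on the horizontal axis and at 54 DPA on the vertical axis, both on log scales and from tables normalised separately. Red points are the 143 genes counted as higher at 54 DPA, blue points the 167 counted as lower, and the band of grey points holds the 18091 genes within 2-fold.

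This was the interval with the fewest counted genes among those between consecutive ages of a genotype. By the same rule M82 changed in 7.64% of measured genes from 47 to 54 DPA, and n3122 changed in 13.2% from 35 to 47 DPA and in 9.28% from 54 to 60 DPA. M82 from 35 to 47 DPA, when its ripening genes come up, had 11.2% of genes higher and 14.1% lower. The n3122 intervals share groups with each other, so their sizes are set side by side with no further comparison.

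Of 233 tomato genes in 20 lists by function, 212 were measured in the interval, 8 of which rose and 13 fell, against 0.777% and 0.908% of all measured genes. The lists and their members were chosen with earlier results of these data known. Part of any excess over all genes, here and in the single lists below, may therefore be built in. The 8 were 7 genes that ripening is known to raise in wild-type fruit (RIN, ACS4, AAT1, LOXC, EXP1, MAN4 and TIV1) and a small heat shock gene. The 13 were 10 genes for chlorophyll a/b-binding proteins, 2 cuticle genes and the auxin-response repressor IAA3. All 7 were higher in M82 at 47 DPA than at 35 DPA by more than 2-fold.

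RIN (Solyc05g012020), the MADS-box factor that switches on many ripening genes, was at 2.66 FPKM in n3122 at 35 DPA, 7.23 at 47 DPA, 28.3 at 54 DPA and 364 at 60 DPA. In M82 it stood at 2.26, 733 and 977 FPKM at 35, 47 and 54 DPA. The rise from 47 to 54 DPA was 1.77 on the log2 scale in n3122, and the mutant still had 2.89% of the M82 level at 54 DPA, against 0.986% at 47 DPA. So the mutant's RIN level at each of these ages lay far below that of M82, and the authors' deposited table gave q-values of 0.000521 at 47 DPA and 0.000377 at 54 DPA for that difference. Both are the smallest q-values of their tables.

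ACS4 (Solyc05g050010) encodes an ACC synthase of the autocatalytic ethylene burst. It was flat in n3122 from 35 DPA (1.07 FPKM) to 47 DPA (1.24 FPKM), then stood at 10.5 FPKM at 54 DPA and 144 FPKM at 60 DPA. Its change was 2.30, the largest of the ethylene synthesis list. With its low level at 47 DPA the value depends on the pseudocount, and is 1.26 with 5 FPKM and 2.91 with 0.1 FPKM. At 54 DPA it had 8.60% of the 122 FPKM seen in M82. ACS2, the other ACC synthase of the burst, went from 12.01 to 21.1 FPKM, a change of 0.70 that is short of 2-fold.

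Aroma genes gave the largest listed rise. AAT1 (Solyc08g005770), an alcohol acyltransferase that makes volatile esters, was at 1.15, 20.5, 125 and 1077 FPKM in n3122 at 35, 47, 54 and 60 DPA, with a change of 2.48 in the interval. M82 was already at 1866 FPKM at 47 DPA and at 2117 FPKM at 54 DPA. LOXC (Solyc01g006540), the lipoxygenase that feeds fatty-acid volatiles, started lower still, at 0.205 FPKM at 35 DPA and 0.428 at 47 DPA, and reached 4.92 FPKM at 54 DPA and 275 FPKM at 60 DPA. Its change of 1.99 rests on a level under 1 FPKM at 47 DPA, and with a pseudocount of 5 FPKM it would be 0.82 and no longer counted; with 0.1 FPKM it would be 3.18. At 54 DPA LOXC had 0.906% of the M82 level, the smallest share among the 8 risen genes.

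Cell wall genes split by gene. EXP1 (Solyc06g051800), the ripening expansin that loosens the wall, was at 1.77, 13.7, 49.1 and 385 FPKM across the 4 mutant ages and rose by 1.70 on the log2 scale. MAN4 (Solyc01g008710), an endo-mannanase, was at 6.19, 31.5, 106 and 1694 FPKM and rose by 1.65. In M82 MAN4 stood at 1135 FPKM at 47 DPA and 105 FPKM at 54 DPA, so at 54 DPA both genotypes had about the same level (100.4% of M82) and the authors' deposited table gave a q-value of 0.989. PG2A, the ripening polygalacturonase, went from 14.9 to 28.9 FPKM with a change of 0.85, and PL, the pectate lyase that drives softening, from 4.21 to 6.40 FPKM with 0.44. The cellulase CEL2 had the lowest value of the list at -0.38. Of the 12 wall genes measured 2 rose, against 0.777% of all measured genes, and 0 fell, with a median change of 0.10.

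TIV1 (Solyc03g083910), the vacuolar invertase that splits sucrose in ripening fruit, had a course of its own. It was already at 448 FPKM in n3122 at 35 DPA, was at 226 at 47 DPA, and then at 567 and 1188 FPKM at 54 and 60 DPA, so its change in the interval was 1.26. At 54 DPA it had 19.6% of the M82 level of 2886 FPKM. The other 11 measured genes of sucrose and starch metabolism stayed within 2-fold, with the sucrose synthase SUSY lowest at -0.69 and a list median of -0.10.

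**Figure D2:**
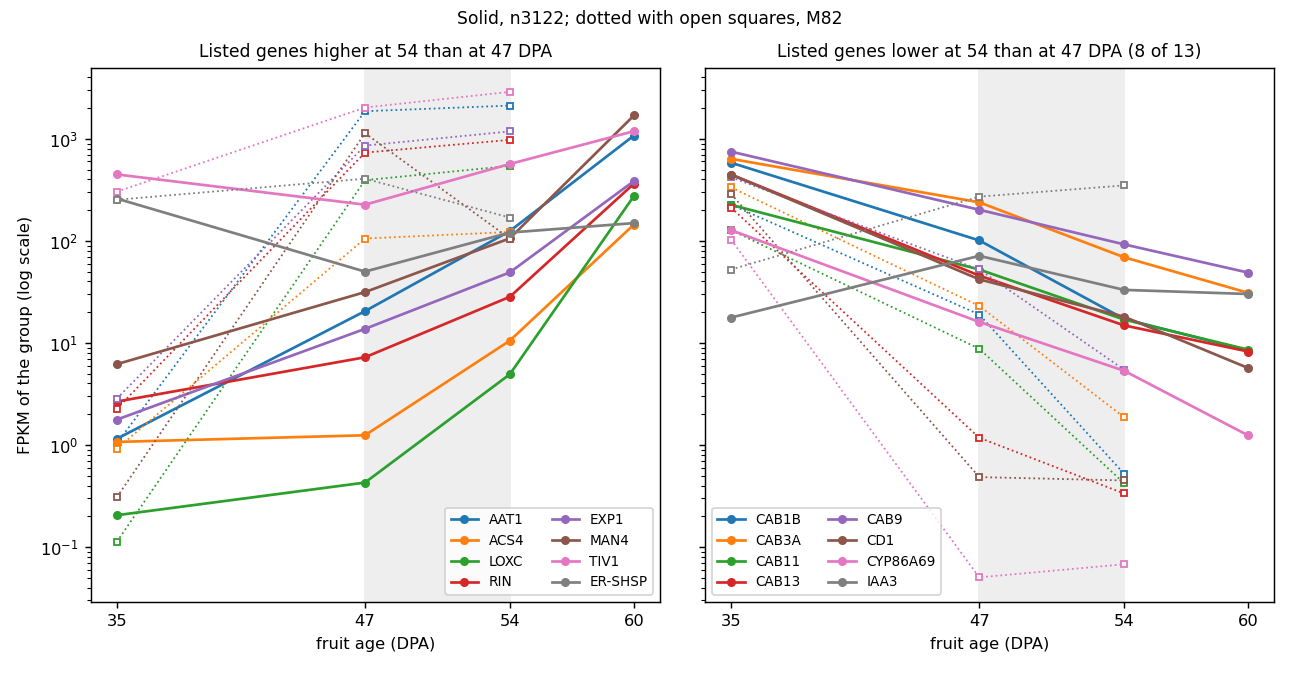
FPKM per group (log scale) against fruit age in DPA for the 8 listed genes that rose from 47 to 54 DPA (left) and 8 of the 13 that fell (right), with n3122 as solid lines and filled circles and M82 as dotted lines and open squares; the shaded band is the interval. In n3122 RIN, AAT1, EXP1, MAN4 and LOXC climb at each later age, while the light-harvesting genes and CD1 decline from 35 DPA on; each age comes from a table normalised separately.

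The other ripening regulators did not pass 2-fold. NOR went from 111 to 142 FPKM (change 0.30), AP2A, a negative regulator of ethylene synthesis in fruit, from 38.1 to 54.2 FPKM (0.43), and CNR, the SPL factor of the Cnr locus, from 37.0 to 35.3 FPKM (-0.13). The MADS-box partners of RIN were close to level, with FUL1 at 375 and 315 FPKM (-0.31), FUL2 at 154 and 164 FPKM (0.02) and TAGL1 at 144 and 150.1 FPKM (-0.01). RIN was thus the 1 gene counted among the 14 of this list, whose median change was 0.12. The marker genes of the ethylene response were within 2-fold as well: E4 was at 33.8 and 45.6 FPKM (0.35) beside 2477 FPKM in M82 at 54 DPA, and E8, an oxidase gene induced at ripening, at 219 and 356 FPKM (0.64).

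Ethylene synthesis moved unevenly. The oxidase ACO1 was at 906 and 1238 FPKM in n3122 at 47 and 54 DPA (change 0.38), while in M82 it went from 2657 to 1489 FPKM, so the mutant's level was 34.1% and then 83.1% of that in M82, and the authors' deposited table gave a q-value of 0.539 at 54 DPA. ACS6, a synthase of the pre-ripening stage, was at 55.6 and 29.1 FPKM, and its change of -0.97 was just short of 2-fold. ACS1A was at 44.6 and 69.8 FPKM (0.57). The 10 measured genes had 1 riser, ACS4, and a median of -0.06, which is 0.16 with a minimum of 5 FPKM.

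None of the 16 measured genes of ethylene perception and signalling was counted, and their changes spanned only -0.18 (the receptor ETR6) to 0.31 (the kinase CTR1). EIN2 (Solyc09g007870), the membrane protein through which the ethylene signal passes, was at 2.50 FPKM at 47 DPA and 2.91 at 54 DPA, a change of 0.09. It stood at 3.75 FPKM at 35 DPA and 1.95 at 60 DPA in n3122, and at 35.0 and 40.8 FPKM in M82 at 47 and 54 DPA. The mutant's EIN2 level was therefore 7.15% and 7.13% of that in M82 at these ages, and the q-values of the authors' deposited tables were 0.000521 at 47 DPA and 0.000377 at 54 DPA. The receptor NR, strongly ripening-induced in wild-type fruit, was at 29.1 and 32.0 FPKM (0.07), beside 280 and 257 FPKM in M82. Among 19 measured ethylene response factors none was counted, and values ran from -0.56 (ERF-C4) to 0.51 (PTI4) with a median of 0.13.

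The carotenoid pathway stayed near its 47 DPA level. PSY1 (Solyc03g031860), the fruit phytoene synthase that limits lycopene synthesis, was at 88.0 FPKM at 47 DPA and 129 FPKM at 54 DPA in n3122, then at 644 FPKM at 60 DPA. Its change of 0.48 was the largest of the 6 genes from phytoene to lycopene, and its 54 DPA level was 4.24% of that in M82. Z-ISO, the zeta-carotene isomerase, was at 38.4 and 50.7 FPKM (0.33) in n3122 and at 2172 and 1898 FPKM in M82. PDS, the desaturase between them, had 62.8 and 72.7 FPKM (0.14), and PSY2, the phytoene synthase of green tissue, had the lowest value at -0.32. No gene of this list was counted, and its median was 0.17.

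Genes before and after lycopene likewise had no counted member. In the plastid isoprenoid pathway GGPS2, a geranylgeranyl diphosphate synthase of fruit, was at 1.71 and 3.08 FPKM (0.52) and the entry enzyme DXS1 at 96.0 and 71.6 FPKM (-0.48), with a median of 0.16 over 9 genes. The 6 genes of cyclization and xanthophyll synthesis ran from -0.31 (VDE) to 0.43 (CRTRB1). In carotenoid cleavage and abscisic acid metabolism, CYP707A2, which breaks down abscisic acid, was at 46.3 and 28.1 FPKM (-0.77), the lowest of 6 genes, and its paralogue CYP707A1 was highest at 0.28.

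The largest concerted movement was in photosynthesis. All 24 measured genes of the list had a change below 0 and below the lower quartile of all genes, 10 of the 24 were counted as lower against 0.908% of all measured genes, and the median change was -0.83. The 10 were all genes of chlorophyll a/b-binding proteins (CAB), the antennae that hold chlorophyll in the thylakoid membrane. In M82 the median change of the 23 genes measured over the same interval was -2.57. Because pericarp was sequenced in bulk, fewer green cells and less of these transcripts per cell cannot be told apart.

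Among the CAB genes the loss was graded. CAB1B (Solyc02g071030) was at 583, 101, 17.2 and 8.40 FPKM in n3122 at 35, 47, 54 and 60 DPA and fell by 2.55 on the log2 scale in the interval. CAB3A (Solyc03g005760) was at 636, 239, 69.1 and 30.9 FPKM and fell by 1.84. CAB13 (Solyc12g011450) was at 447, 45.7, 14.9 and 8.23 FPKM and fell by 1.62. These genes had already lost most of their transcript by 47 DPA, and went on downward.

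The remaining fallen members were CAB1C (-2.05), CAB3C (-1.86), CAB6A (-1.76), CAB1A (-1.66), CAB11 (-1.64), CAB9 (-1.18) and CAB5 (-1.18). CAB3C and CAB5 were low, at 5.45 and 7.90 FPKM at 47 DPA, and neither would be counted with a pseudocount of 5 FPKM. CAB3C would then be at -0.89, and at -2.61 with 0.1 FPKM. The copies of CAB1 and of CAB3 lie in clusters of near-identical genes, so reads may have been split among them and their single values are uncertain. The 5 measured CAB genes that stayed within 2-fold included CAB8, at 154 and 87.8 FPKM (-0.87), and CAB7, the most abundant of the family in n3122 at 54 DPA, at 433 and 290.0 FPKM (-0.64). Over the 15 measured CAB genes the median change was -1.62.

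The other 9 measured photosynthesis genes, for Rubisco and photosystem II proteins, had a median of -0.40 and no counted member. RBCS2, a small subunit of Rubisco, was at 909 and 733 FPKM (-0.38), and RCA, the Rubisco activase, was at 153 and 140.1 FPKM (-0.19), the least changed of the list. The small subunit genes are near-identical as well, and their single values are uncertain. The photosystem II genes ran from PSBR at -0.35 to PSBS at -0.66, and the small subunit genes from RBCS1 at -0.31 to RBCS3 at -0.79, so both overlapped with the least changed CAB genes.

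The mutant had far more of these transcripts than M82 at 54 DPA. The CAB genes with a level above 0 in M82 stood at a median of 2387% of it, and CAB7 was at 290.0 FPKM in n3122 and 5.47 FPKM in M82. That percentage takes no pseudocount. Several of the M82 levels were under 1 FPKM, among them CAB3C (0.174 FPKM) and CAB13 (0.334 FPKM), so it is approximate. CAB1B, with the steepest fall in the mutant, was still at 17.2 FPKM beside 0.522 FPKM in M82, for which the authors' deposited table gave a q-value of 0.0219. RBCS2 was at 733 FPKM in n3122 and 20.3 FPKM in M82.

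**Figure D3:**
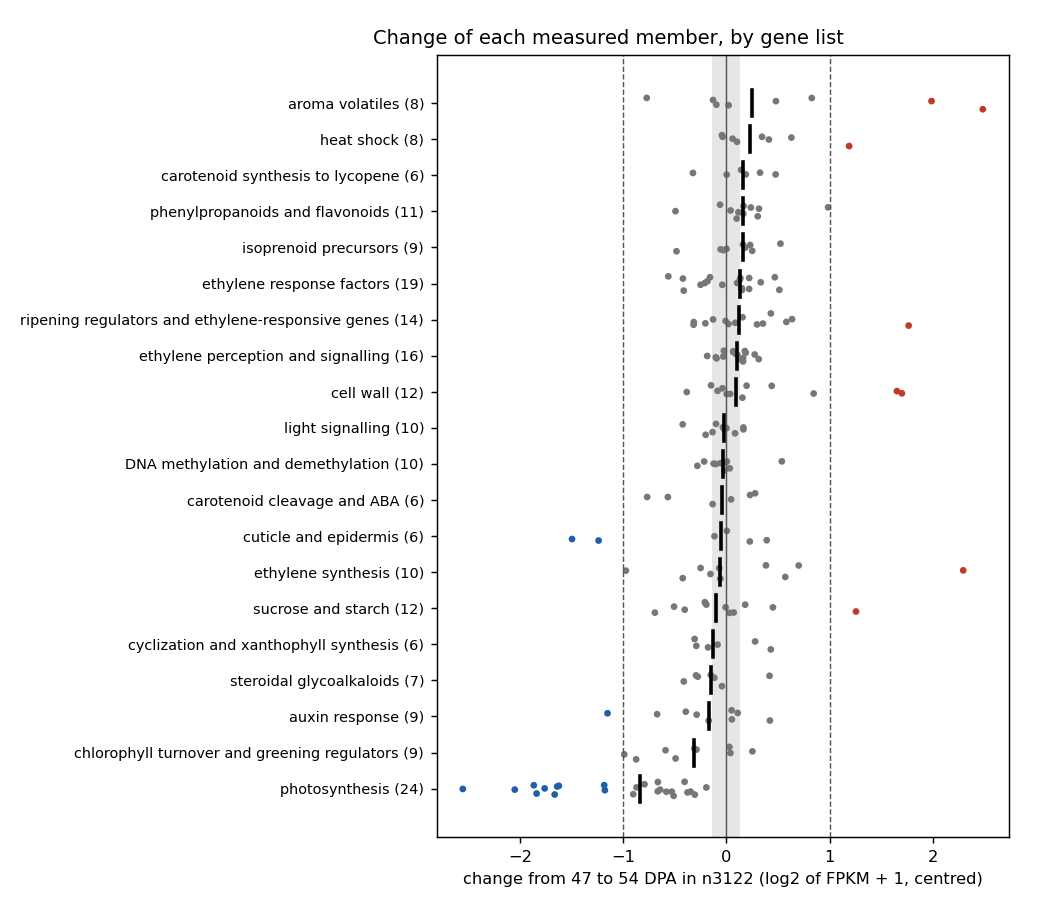
Each dot is the change of a measured gene in n3122 from 47 to 54 DPA (log2 of FPKM + 1, centred; tables normalised separately), by gene list with the number of measured genes in brackets; black bars are list medians, the grey band spans the quartiles of all 18401 genes and dashed lines mark 2-fold. Photosynthesis lies wholly to the left with a median of -0.83, and the 8 red and 13 blue dots are the listed genes counted as higher and lower.

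Genes that build or dismantle the green state were within 2-fold. POR1, a protochlorophyllide reductase of chlorophyll synthesis, was at 19.6 and 9.86 FPKM (-0.99), and GLK2, the factor that promotes chloroplast development in fruit, at 5.16 and 2.52 FPKM (-0.87). With a pseudocount of 0.1 FPKM both pass 2-fold, POR1 at -1.05 and GLK2 at -1.08. SGR1, the stay-green protein that starts chlorophyll breakdown, was at 241 and 258 FPKM (0.03), and PAO, the oxygenase that opens the chlorophyll ring, had the highest value of the list at 0.25. The list median was -0.31 over 9 genes. The 10 light signalling genes ran from -0.42 (CRY1B) to 0.17 (PHYB2), with a median of -0.03.

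Of the 6 cuticle and epidermis genes 2 fell, against 0.908% of all measured genes. CD1 (Solyc11g006250), the cutin synthase that joins the polymer of the fruit skin, was at 447, 41.96, 18.1 and 5.67 FPKM in n3122 and fell by 1.24 on the log2 scale. CYP86A69 (Solyc08g081220), an oxidase that makes cutin monomers, was at 127, 16.1, 5.33 and 1.24 FPKM and fell by 1.49. In M82 both had been at or under 0.484 FPKM since 47 DPA. The authors' deposited tables gave q-values between genotypes of 0.00178 at 47 DPA and 0.00103 at 54 DPA for CD1. For CYP86A69 they were 0.255 and 0.184, so that difference was not called at either age. CD2, a regulator of cutin formation, was at 35.7 and 49.4 FPKM (0.39), and CER6, a wax synthesis enzyme, had a change of 0.01.

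Skin and green tissue were followed by summed markers. The summed level of the 6 cuticle genes was 193 FPKM at 47 DPA and 177 FPKM at 54 DPA in n3122, and that of 5 green-tissue genes (RBCS1, RBCS2, RCA, CAB7 and CAB8) was 1750 and 1335 FPKM. None of these markers was listed at 0 in n3122 at either age. Each sum leans on a few genes: RBCS2 alone was at 909 and 733 FPKM, and CER6 at 89.1 and 93.6 FPKM. The green-tissue markers include none of the 10 CAB genes that fell. The share of skin in each sample and its part in the values of CD1 and CYP86A69 was not tested.

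IAA3 (Solyc09g065850), an auxin-response repressor linked to ethylene responses in tomato, was the 1 auxin gene counted. It was at 17.7, 71.3, 33.1 and 30.1 FPKM in n3122 and fell by 1.15 on the log2 scale. M82 was at 271 FPKM at 47 DPA and 350 FPKM at 54 DPA, so the mutant's share went from 26.3% to 9.46%. The auxin-conjugating enzyme GH3.2 was at 15.6 and 9.91 FPKM (-0.67), and IAA9, a repressor tied to fruit set, had the highest value of the 9 measured genes at 0.42.

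ER-SHSP (Solyc11g020330), a small heat shock protein of the endoplasmic reticulum, was at 260, 50.0, 121 and 149 FPKM in n3122 and rose by 1.19. In M82 it was at 407 FPKM at 47 DPA and 169 FPKM at 54 DPA, and the authors' deposited table gave a q-value of 0.0967 for the genotypes at 54 DPA. The other 7 heat shock genes were within 2-fold, from HSP17.4 at -0.04 to HSP17-6, at 62.8 and 102 FPKM, with 0.63. The list median was 0.23.

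Flavonoid, glycoalkaloid and DNA methylation genes had no counted member. PAL2, of the first step of phenylpropanoid synthesis, was at 2.62 and 6.49 FPKM. Its change of 0.99 would be counted under 3 of the other settings that keep the 2-fold limit, with values of 1.01 to 1.21, and at the limit of 1.5-fold. CHS1, the chalcone synthase of skin flavonoids, was at 0.195 and 0.554 FPKM and so below the minimum, beside 54.8 FPKM in M82 at 54 DPA. The 11 measured genes of the group had a median of 0.16. GAME4, which commits cholesterol to glycoalkaloids, was at 6.01 and 8.80 FPKM (0.42), the highest of 7 genes whose lowest was GAME5 at -0.41. DML2, the DNA demethylase that acts on ripening promoters, was at 71.4 and 109 FPKM (0.54). In M82 it went down from 306 to 209 FPKM, so the mutant's share went from 23.4% to 52.1%. The change of DML2 in n3122 was the highest of the 10 methylation genes, whose median was -0.04.

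The genes that moved were set against what M82 did from 35 to 47 DPA, a pair of groups that shares no sample with the mutant interval. Genes that had changed most in M82 at that step moved the same way in n3122 on the median, by a smaller amount. Of the 34 genes that had gone up by more than 6 in M82, 18 rose in n3122 and 0 fell, with a median change of 1.05. A gene under 1 FPKM at 47 DPA was measured only where it reached 1 FPKM at 54 DPA. Among such genes only those going up enter, which lifts the share and median of this bin. CHS1, up by 6.36 in M82 and at 0.195 and 0.554 FPKM in n3122, was left out in this way. For the 79 genes up by 4 to 6 the median was 0.48, with 16 risen and 2 fallen. It was 0.21 for the 497 genes up by 2 to 4 and 0.09 for the 1276 up by 1 to 2.

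On the falling side the medians were -0.13 for 1687 genes down by 1 to 2 in M82, -0.27 for 683 genes down by 2 to 4 and -0.37 for 79 genes down by 4 to 6. The last bin, beyond 6, had only 12 genes, with a median of -1.25 and 7 fallen. A gene under 1 FPKM at 54 DPA was measured only where it had reached 1 FPKM at 47 DPA. Among such genes only those going down enter, as CAB3C did (5.45 to 0.852 FPKM), which can lower the medians of these bins and lift their fallen shares. The 13378 genes that M82 had moved by less than 1 had a median of 0.01, with 0.277% risen and 0.306% fallen. Across 17725 genes measured in both, which are not independent, Spearman's rho between the changes was 0.333 and Pearson's r was 0.368.

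**Figure D4:**
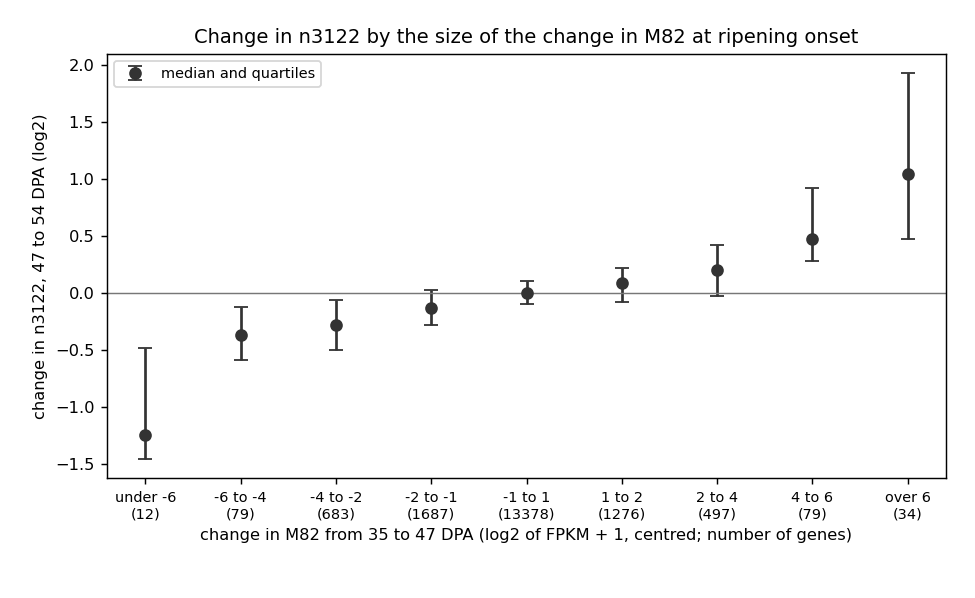
Change in n3122 from 47 to 54 DPA (log2 of FPKM + 1, centred) for genes binned by their change in M82 from 35 to 47 DPA, with the median as a dot and the quartiles as bars, and the number of genes in brackets; all values set separately normalised tables side by side. The medians run from -1.25 in the lowest bin, which holds 12 genes, to 1.05 in the highest, which holds 34. Genes under 1 FPKM at both mutant ages are left out.

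Most of what M82 had done was not visible as a 2-fold change in n3122 over this week. Of 1886 genes raised at least 2-fold in M82 from 35 to 47 DPA, 63 rose in n3122 (3.34%) and 35 fell (1.86%). Their median change was 0.12, and 70.1% were above 0. Of 2461 genes lowered in M82, 63 fell (2.56%) and 18 rose (0.731%), with a median of -0.16. Read from the mutant's side, 63 of the 118 risen genes that were measured in M82 (53.4%) were raised there, against 10.6% of all measured genes. Of the same 118 genes, 18 (15.3%) were lowered there, against 13.9% of all measured genes. Of 139 fallen genes, 63 (45.3%) were lowered in M82, against 13.9%. But 35 of the 139 (25.2%) were raised in M82, against 10.6%, so the fallen genes leaned both ways. The entry rule for genes under 1 FPKM at one mutant age bears on all these counts and shares, and its part in them was not tested.

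The mutant interval was also set against M82 over the same ages. Across 17142 genes measured in both genotypes from 47 to 54 DPA, Spearman's rho was 0.147 and Pearson's r 0.146. Of the genes measured in both, 115 rose in n3122 and 398 in M82, and 21 did so in both, which is 18.3% of the n3122 genes and 5.28% of those of M82, while 2.32% of all these genes rose in M82. Of 117 fallen genes in n3122 and 804 in M82, 27 were shared, or 23.1% and 3.36%, while 4.69% of all these genes fell in M82. A further 28 genes went opposite ways, 16 of them up in n3122 and down in M82, MAN4 and ER-SHSP among them. These 16 are 13.9% of the 115, while 4.69% of all these genes fell in M82. The 12 that went down in n3122 and up in M82 are 10.3% of the 117, while 2.32% rose in M82. Genes counted in n3122 were thus more often counted in M82 in either direction.

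Outside the lists, the 2 genes with the largest rise among those reaching 10 FPKM have no name in the files. Solyc00g060810 was at 7.07 FPKM at 47 DPA, 105 at 54 DPA and 1980.4 at 60 DPA in n3122, a change of 3.65, and at 154 and 299 FPKM in M82 at 47 and 54 DPA. Solyc08g005630 was at 1.19, 23.4 and 293 FPKM at those mutant ages, a change of 3.41, and at 276 and 680.1 FPKM in M82. Both had thus been strongly expressed in M82 since 47 DPA. The 2 largest falls were Solyc00g265510, from 39.6 to 5.06 FPKM (-2.81), and Solyc04g014920, from 105725 to 20124 FPKM (-2.46).

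Solyc04g014920 was among the most abundant entries of the mutant, and the authors' deposited tables gave no difference between the genotypes for it at 47 DPA (q-value 0.549) or at 54 DPA (q-value 0.749), though its values were 45666 and 39938 FPKM in M82. Other entries at this height moved as well. The most abundant gene of n3122 at 47 DPA took 15.4% of the group's total at 209458 FPKM and 9.03% at 54 DPA at 119477 FPKM, the same value that another gene had at 54 DPA after a listing at 0 at 47 DPA. A gene may be listed at 0 because its estimate failed, so no fold is given for the 884 genes listed at 0 at 47 DPA alone or the 909 at 54 DPA alone. Of these, 12 and 9 reached 10 FPKM at the other age.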

How the data were processed

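The submitters' processing notes name TopHat2 (version 2.0), Cufflinks and CASAVA, and the build of the genome is not given in the sources used here. Per the file headers, each of the 4 deposited tables holds 34725 genes with 1 FPKM per group, a test statistic (the authors' score per gene, not used further) and the authors' p-value and q-value between genotypes. FPKM of M82 at 47 DPA differed between its 2 tables by a constant ratio of 0.960, so tables were taken as normalised separately. Read depth is unknown, and no interval from counting is given. Changes were computed in Python 3.11.15 with pandas 2.3.3 as the report defines them, and tested on simulated data.

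The files pair no identifier with a name. Of 238 symbols written from general knowledge, 211 lay within 5% of the relative place of a gene so named in RefSeq (assembly SLM_r2.1), 36 of them by a synonym or other name, 22 had no such symbol there (among them CYP86A69, PAO, POR1, RCA and GAME5), and 5 lay elsewhere and were dropped. Close neighbours cannot be told apart this way. Genes named by rule are a preset set of ripening genes, each listed gene past 2-fold, the extremes of each list and 2 unlisted genes each way. Some others, such as ACS1A, GLK2 and GH3.2, were named outside this rule. The members and lists were chosen with earlier results of these data known, and lists were extended, and CHI and CHIL paired anew, after the files were read. Pseudocount, centring, minimum and fold were varied.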

Additional observations from a re-analysis of the deposited data

Results flagged for a closer look

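MAN4 and ER-SHSP moved past 2-fold in opposite directions in the genotypes from 47 to 54 DPA, and neither difference was tested, since each group has 1 value. MAN4 rose by 1.65 in n3122 (31.5 to 106 FPKM) and fell by 3.46 in M82 (1135 to 105 FPKM), a difference of 5.12 on the log2 scale. ER-SHSP rose by 1.19 in n3122 (50.0 to 121 FPKM) and fell by 1.31 in M82 (407 to 169 FPKM), a difference of 2.50.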

How the results depend on the processing

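A pseudocount of 0.1 FPKM gave 297 higher and 332 lower genes, and one of 5 FPKM gave 60 and 78, all of the latter among the 143 and 167. A limit of 1.5-fold gave 512 and 653, and one of 4-fold 16 and 9. No centring gave 175 and 148, and a minimum of 5 FPKM 111 and 125. With M82 genes taken at a change of at least 2 from 35 to 47 DPA, 8.20% of the raised genes rose in n3122 (median 0.26) and 5.94% of the lowered fell (median -0.28). Of 493 values of genes named by rule, 44 moved by more than 0.123, which is 0.5 times the interquartile range of all genes, and none reversed. Of the 21 listed genes counted, 17 fell short of the 4-fold limit. At 2-fold, 3 lost the call with a pseudocount of 5 FPKM, LOXC (0.82), CAB3C (-0.89) and CAB5 (-0.72), and LOXC was below the minimum of 5 FPKM; the other settings lost none. The photosynthesis median ran from -0.85 to -0.70. The median of ethylene synthesis turned to 0.16 with a minimum of 5 FPKM, and those of light signalling and DNA methylation to 0.04 and 0.03 without centring. Every change is 0.065 higher without centring. The centred medians of carotenoid cleavage (-0.043), cuticle (-0.054) and ethylene synthesis (-0.063) thus also turn above 0 there. The cause was not tested beyond the settings' own construction: a higher pseudocount shrinks low genes.

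No paired analysis was possible because the tables hold 1 value per group, and for the same reason no replicate could be left out. Without values per library no change has an error, and genes under 2 FPKM spread more (interquartile range 0.441) than those at 30 to 100 FPKM (0.191).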

Other observations

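The 3 tomato CBF genes, AP2 factors known from the cold response of leaves and outside the lists, were lower together at 54 DPA; they were picked after their values were seen, and their names were not checked by position. CBF1 (Solyc03g026280) was at 7.72, 61.1, 13.2 and 31.0 FPKM in n3122 at 35, 47, 54 and 60 DPA and fell by 2.20 from 47 to 54 DPA on the log2 scale. CBF2 (Solyc03g124110) was at 13.04 and 2.49 FPKM at 47 and 54 DPA and fell by 2.07, and CBF3 (Solyc03g026270) was at 17.3 and 3.87 FPKM and fell by 1.98. They ranked 4, 5 and 8 from the lowest change among 12130 measured genes reaching 10 FPKM. In M82 the changes over these ages were 0.26, -0.39 and 0.19. The authors' deposited table called none of the 3 between genotypes at 47 DPA (q-values 0.825, 0.210 and 0.435) and all 3 lower in n3122 at 54 DPA (q-values 0.000377, 0.000377 and 0.00216). Those comparisons use the same n3122 values by which the 3 genes were picked, so they are no separate support for the fall. The labels give no hour of harvest and no temperature.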
